A study of Homo sapiens with 6 samples.

Results

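Of the 2588 mature miRNA entries measured in exosomes of HCT116 cells, 6 GC-rich ones are described here: hsa-miR-3196, hsa-miR-4508, hsa-miR-4516, hsa-miR-6087, hsa-miR-4488 and hsa-miR-3960, written without the species prefix from here on where the entry is clear. They were taken by name as entries that overlap or resemble ribosomal and other structural RNAs, and were selected on having enough reads in these libraries, so their read totals helped to choose them and are given as a description. All 6 had reads and all 6 were among the 80 entries with enough reads to be tested, out of 686 with at least 1 read. HCT116 is an established human colorectal carcinoma line. Cells of the siCTL group (n = 3 libraries) received a control siRNA and cells of the siPRDX3 group (n = 3) an siRNA against PRDX3, a mitochondrial peroxiredoxin that removes hydrogen peroxide. In both groups the siRNA was introduced by microporation for 40 h, the cells then spent 24 h in medium with nanoparticle-free serum, and exosomes were isolated from it with a commercial kit. The comparison asks which exosomal miRNAs differ after PRDX3 depletion. A small-RNA assay does not read PRDX3 mRNA, so the knockdown was not checked. The groups and cells are those of the sample titles; the closing sentence of the series' design text speaks of a different siRNA and different cells, and was not followed. Whether a group's libraries came from separate cultures is not stated, so p-values measure the spread between libraries, which may be technical.

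A miRNA is cut by Drosha and Dicer from a hairpin transcript, is loaded into an Argonaute protein and recognises messenger RNAs mainly through its seed, the bases 2 to 8 from its 5′ end. Some entries of miRNA catalogues rest on short reads whose sequence also occurs in, or closely resembles, ribosomal, transfer or small nuclear RNA. Reads of such an entry can come from fragments of those abundant RNAs, and a table of entry totals does not separate the sources. Exosomes carry fragments of structural RNAs beside miRNAs.

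The available sequences, which cover 5 of the 6, show what these entries have in common. No mature or hairpin sequence was available for miR-6087, so its base composition was not read. RefSeq (GRCh38.p14) held a mature sequence for 3 of the 6, and these are printed 5′ to 3′ with the seed in capitals.
miR-3196: cGGGGCGGcaggggccuc
miR-4488: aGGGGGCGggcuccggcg
miR-4516: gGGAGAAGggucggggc
miR-3196 and miR-4488 are 18 bases long with 88.9% G and C, and miR-4516 is 17 bases long with 76.5%. Among the 2281 entries with a mature sequence the median GC content was 52.2% and the median length 22 bases. Only 14 of those entries exceeded miR-3196 and miR-4488 in GC content, and 0.745% reached at least their level. For miR-4516 the share reaching its level was 4.08%. The 3 seeds differ from each other, so these 3 entries do not form a seed family, although GGGGCG occurs in those of miR-3196 and miR-4488. The seeds of miR-4508, miR-6087 and miR-3960 were not available. Entries that share a seed with miR-3196, miR-4488 or miR-4516 were nearly silent. miR-3180 and miR-3180-3p, with the seed of miR-3196, were at 0 in all libraries, and miR-6816-5p, with the same seed, had 1 read in siCTL 1 and 1 in siPRDX3 2. miR-1237-5p, with the seed of miR-4488, had 19 reads in siCTL 2 and 6 in siCTL 3, and at most 1 read elsewhere.

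For miR-3960 and miR-4508 the hairpins are shown, with the longest stretch made of G and C alone in capitals.
miR-3960 hairpin: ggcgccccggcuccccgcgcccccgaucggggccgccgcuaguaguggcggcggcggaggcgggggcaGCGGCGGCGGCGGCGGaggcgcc
miR-4508 hairpin: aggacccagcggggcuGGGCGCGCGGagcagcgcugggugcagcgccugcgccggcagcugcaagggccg
The miR-3960 hairpin is 91 bases long with 87.9% G and C, and its capitals mark 16 bases of a repeated GCG triplet. The miR-4508 hairpin has 70 bases and 80% G and C. The hairpins of miR-4488, miR-3196 and miR-4516 have 82.3%, 75% and 72.1%.

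The hairpins lie on 6 chromosomes. None is in an annotated small nuclear RNA gene or in an annotated ribosomal RNA gene or pseudogene. The longest nuclear ribosomal transcript in that annotation has 155 bases. The large ribosomal RNA genes are thus not in it, and a place within them could not be seen. Positions are those of GENCODE v29 on GRCh38, and the authors' own build is not given in the sources used here. Within a coding exon of a transcript of CDK9, the kinase that releases paused RNA polymerase II, lies the miR-3960 hairpin (chr9:127785833-127785923, plus strand). It overlaps the neighbouring hairpin of miR-2861, an entry with 1 read in all libraries. That of miR-3196 (chr20:63238779-63238842, plus strand) lies in an intron of BIRC7, an inhibitor of apoptosis, on the same strand. That of miR-4516 (chr16:2133119-2133204, plus strand) lies in an intron of PKD1, which encodes polycystin-1, on the opposite strand. The hairpins of miR-4488 (chr11:61508596-61508657, plus strand), miR-4508 (chr15:23562062-23562131, minus strand) and miR-6087 (chrX:109054542-109054590, plus strand) overlap no other annotated gene. The nearest protein-coding gene to miR-4488 is LRRC10B, 143 bases away, and the nearest to miR-4508 is MKRN3, an imprinted gene, 3543 bases away.

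The named likeness to structural RNA was checked as far as the reference allowed. None of the mature sequences of miR-3196, miR-4488 and miR-4516 occurs whole in another GENCODE transcript, spliced transcripts of all classes included. Their longest stretch shared with any of 5714 structural RNA transcripts (ribosomal, small nuclear, small nucleolar, mitochondrial and similar) was 10, 10 and 11 bases. The same search found the whole 19-base sequence of miR-1246 in 19 transcripts, among them copies of U2 small nuclear RNA. The longest nuclear ribosomal transcript or pseudogene in that collection has 155 bases, so the large ribosomal RNAs were not searched and a match to them was not analysed here. The entries were picked as GC-rich ones, so their GC content describes the choice and is no test of it. For miR-4508 and miR-3960 it was read from the hairpin alone, and other hairpins were not compared. miR-4516, with 76.5%, lies below the 80% used further below to mark GC-rich entries. Likeness of the entries to the large nuclear ribosomal RNAs remained unchecked.

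The libraries were shallow and unlike each other. The siCTL libraries, taken in replicate order here and below, held 40136, 80955 and 124732 recovered reads of miRNA entries, and the siPRDX3 libraries 230916, 96675 and 70677. siCTL 1 and siCTL 2 stood apart: they lacked 30 and 23 of the 80 tested entries, whereas siCTL 3 lacked 0 and the siPRDX3 libraries 1, 8 and 1. Results that rest on siCTL are therefore also given without these libraries. Intervals beside shares are exact 95% Clopper-Pearson intervals. A count of 0 allows up to 3 reads, which is 0.00130% of siPRDX3 1, the deepest library, and 0.00747% of siCTL 1, the shallowest. Both cover counting error only, because PCR copies cannot be told from separate molecules here.

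Together the 6 entries took little of any library, and almost nothing of 2 of them. Their summed share was 0.0199% in siCTL 1 (8 reads, interval 0.00861 to 0.0393), 0.0185% in siCTL 2 (15 reads, 0.0104 to 0.0306) and 3.09% in siCTL 3 (3860 reads, 2.999 to 3.19). It was 0.805% in siPRDX3 1 (1860 reads, 0.769 to 0.843), 0.776% in siPRDX3 2 (750 reads, 0.721 to 0.833) and 0.971% in siPRDX3 3 (686 reads, 0.8996 to 1.05). The siPRDX3 libraries lay close together, while siCTL held both the lowest libraries and the highest one. Recovered reads in all numbered 80955 in siCTL 2, of which 76.9% were miR-4451, and 70677 in siPRDX3 3. The 6 entries had 15 and 686 of them. The part of depth in this spread between single libraries was not tested. The mean was 1.04% ± 1.78 for siCTL and 0.851% ± 0.105 for siPRDX3 (SD, n = 3). Without siCTL 3 the siPRDX3 mean was 0.831 percentage points above that of siCTL, and with it the difference was −0.194. With all libraries thinned to 40136 reads the difference was −0.188. This sum is over chosen entries and has no test.

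The dominant entry of these libraries, miR-4451, made up 49.4%, 76.9% and 16.4% of the siCTL libraries and 11.8%, 47.7% and 39.95% of the siPRDX3 libraries. With miR-4451 left out of the denominator the 6 entries took 0.0394%, 0.0802% and 3.70% in siCTL and 0.914%, 1.48% and 1.62% in siPRDX3. siCTL 1 and siCTL 2 remained below the other 4 libraries by this measure too, and the order of the group means turned over, to 1.27% ± 2.10 for siCTL and 1.34% ± 0.373 for siPRDX3 (SD, n = 3).

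**Figure D1:**
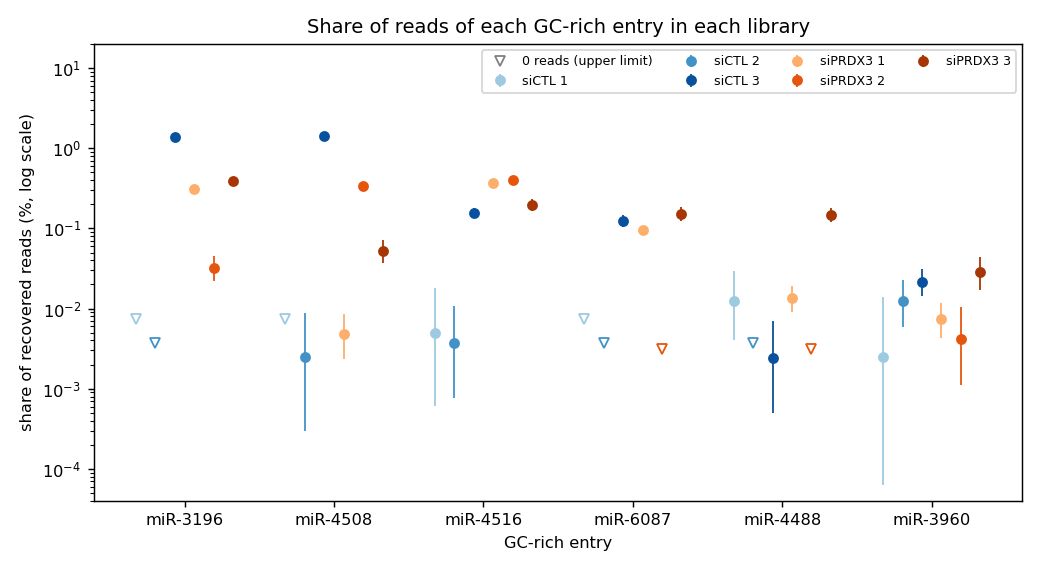
Share of recovered reads (percent, log axis) of each of the 6 GC-rich entries in the 3 siCTL libraries (blue) and the 3 siPRDX3 libraries (orange). Points are single libraries with exact 95% Clopper-Pearson intervals, and open triangles mark libraries with 0 reads at the share that 3 reads would make. miR-3196 and miR-4508 are highest in siCTL 3, at 1.37% and 1.42%, and miR-3960 stays between 0.00249% and 0.0283% in all 6 libraries.

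hsa-miR-3196, the entry with the most reads (2743, place 28 of all entries), was missing from siCTL 1 and siCTL 2. The siCTL libraries held 0, 0 and 1712 reads of it and the siPRDX3 libraries 722, 31 and 278. As shares these were 0%, 0% and 1.37% against 0.313%, 0.0321% and 0.393%. siCTL 3 was the highest library and the groups overlapped. Deposited log2 levels averaged 4.58 ± 7.93 for siCTL and 9.91 ± 1.84 for siPRDX3 (SD, n = 3), and limma put the log2 fold change at 5.33 (SE 3.83, adjusted p = 0.546). With 10 or 100 added in place of 1 before the logarithm it was 3.14 or 1.12. The 2 scales differed in sign: the mean share was lower in siPRDX3 (0.458% ± 0.792 against 0.246% ± 0.190, exact permutation p = 1, SD, n = 3). Without siCTL 3 the share was 0.246 percentage points higher in siPRDX3.

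hsa-miR-4508 reached the highest share of any of the 6 in a single library. Its reads numbered 0, 2 and 1767 among siCTL libraries and 11, 330 and 37 among siPRDX3 libraries. As shares these were 0%, 0.00247% and 1.42% against 0.00476%, 0.341% and 0.0524%. The siPRDX3 libraries themselves spread widely, with siPRDX3 1, the deepest library, near the level of siCTL 2. The log2 levels were 6.38 ± 6.95 and 8.08 ± 3.06 (SD, n = 3), with a fitted log2 fold change of 1.70 (SE 3.61, adjusted p = 0.778 by limma) that turned to −0.27 with 100 added before the logarithm, while the mean share was again lower in siPRDX3 (0.473% ± 0.817 against 0.133% ± 0.182, exact permutation p = 1).

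hsa-miR-4516 was read in every library and had similar shares in siPRDX3 1 and siPRDX3 2. Reads of it numbered 2, 3 and 196 among siCTL libraries and 861, 385 and 140 among siPRDX3 libraries. The shares were 0.00498%, 0.00371% and 0.157% against 0.373%, 0.398% and 0.198%, so that each siPRDX3 library lay above each siCTL library. The intervals of the nearest pair overlapped, 0.136 to 0.181 in siCTL 3 and 0.167 to 0.234 in siPRDX3 3. The mean shares were 0.0553% ± 0.0882 and 0.323% ± 0.109 (SD, n = 3). An exact permutation of the libraries gave p = 0.1, which 3 against 3 cannot go below, and an adjusted p of 0.667 over the 80 tested entries. Such a separation with siPRDX3 above was found for 10 of the 80 tested entries, 12.5%, and for 1 of the 6 described here, with miR-4451 in the denominator or without it. The opposite separation, siCTL above, was found for 0 of the 6 and for 2.5% of tested entries, again in both denominators. On the deposited scale 0 of the 6 separated in either direction, against 7.5% of tested entries with siPRDX3 above and 8.75% with siCTL above. There the miR-4516 groups overlapped, at 5.68, 5.93 and 10.61 against 11.32, 11.41 and 9.88 on the log2 scale. The fitted log2 fold change was 3.47 (SE 1.87, limma's adjusted p = 0.491). The deposited values imply scaling factors of 0.839, 0.522 and 0.848 for siCTL and 1.23, 1.23 and 1.78 for siPRDX3. A larger factor lowers a library's values, so the deposited scale sets siPRDX3 lower against siCTL than shares do. Over the 80 tested entries the median log2 fold change was 1.72 on the deposited scale and 2.57 with library totals.

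hsa-miR-6087 was either read more than 100 times or not at all. Reads of it numbered 0, 0 and 155 among siCTL libraries and 218, 0 and 107 among siPRDX3 libraries. In the 3 libraries that held it the shares were 0.124% (interval 0.105 to 0.145) in siCTL 3, 0.0944% (0.0823 to 0.108) in siPRDX3 1 and 0.151% (0.124 to 0.183) in siPRDX3 3. The siCTL 3 value lay between those of the siPRDX3 libraries, whose intervals did not overlap. In siPRDX3 2, with more reads than siPRDX3 3, the 0 reads had an interval from 0 to 0.00382%. The groups overlapped, and the fitted log2 fold change was 2.85 (SE 4.02, limma's adjusted p = 0.678), or 0.73 with 100 added before the logarithm.

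The remaining pair was sparse. For hsa-miR-4488 the siCTL libraries gave 5, 0 and 3 reads and the siPRDX3 libraries 31, 0 and 104, so siPRDX3 3 alone gave most of its 143 reads. Its share there was 0.147%, against 0.0134% in siPRDX3 1 and 0.0125% in siCTL 1. The groups overlapped, and limma's log2 fold change was 1.46 (SE 3.34, adjusted p = 0.778).

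hsa-miR-3960 was found at a low level everywhere, with 1, 10 and 27 reads among siCTL libraries and 17, 4 and 20 among siPRDX3 libraries. The mean shares were 0.0122% ± 0.0096 and 0.0133% ± 0.0131 (SD, n = 3, exact permutation p = 0.9). The fitted log2 fold change was −0.82 (SE 1.89, limma's adjusted p = 0.778) with the authors' scaling and 0.12 with library totals, so its sign depended on the scaling. In siCTL 2 it was the most read of the 6, with 10 of their 15 reads.

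Read totals alone did not set which entries were chosen. miR-4488 and miR-3960, with 143 and 79 reads, reached the level of 10 reads per library of median size in 3 libraries each, the fewest that the test required. Similar entries outside the set had as many reads or more but in fewer libraries: miR-1268b and miR-1268a, with 153 and 149 reads, were found in siCTL 3 and siPRDX3 3 alone. miR-4497, with 135 reads, could be tested and was not among the chosen entries.

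**Figure D2:**
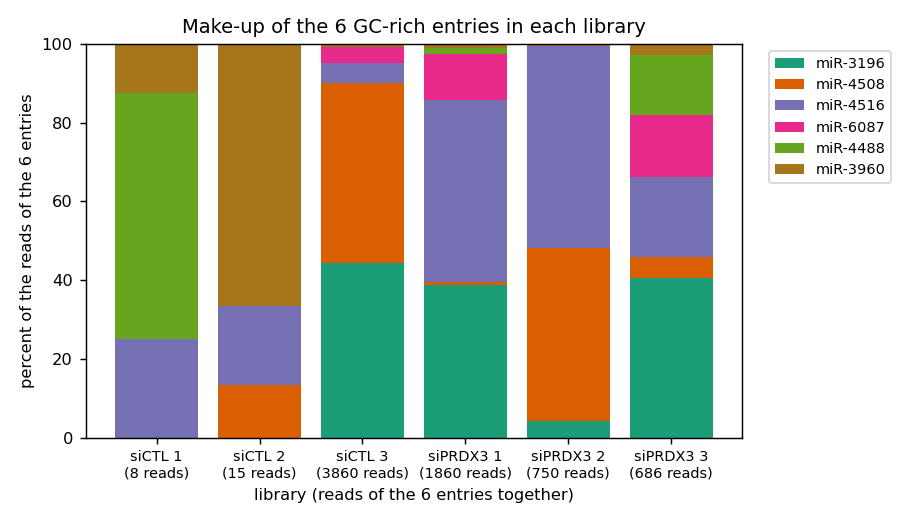
Percent of the summed reads of the 6 GC-rich entries that each entry contributed, by library, with the summed reads under each bar. The leading entry differs between libraries: miR-4508 makes up 45.8% in siCTL 3, miR-4516 46.3% and 51.3% in siPRDX3 1 and 2, and miR-3196 40.5% in siPRDX3 3, while the bars of siCTL 1 and siCTL 2 rest on 8 and 15 reads.

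The make-up of the set differed from library to library. In siCTL 3 miR-4508 (45.8%, interval 44.2 to 47.4) and miR-3196 (44.4%) made up most of the reads and miR-4516 only 5.08%. In siPRDX3 1 miR-4516 led with 46.3% (44.0 to 48.6), followed by miR-3196 with 38.8%, and miR-4508 had 0.591% of the set. In siPRDX3 2 miR-4516 (51.3%, 47.7 to 54.97) and miR-4508 (44.0%) made up nearly all of it, and miR-3196 4.13%. In siPRDX3 3 miR-3196 led with 40.5% (36.8 to 44.3), miR-4516 had 20.4%, miR-6087 15.6% and miR-4488 15.2%. The ratios between the entries thus differed beyond counting error: the intervals for miR-4516 in siPRDX3 1 and 2 lie far above its values in siCTL 3 and siPRDX3 3.

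By mean share over the 6 libraries the order was miR-3196 (0.352% ± 0.528, SD), miR-4508 (0.303% ± 0.561), miR-4516 (0.189% ± 0.171), miR-6087 (0.0617% ± 0.0699), miR-4488 (0.0292% ± 0.0581) and miR-3960 (0.0127% ± 0.0103). Only 1 pair of neighbours kept its order in every library, miR-4516 above miR-6087 in 6 of 6. miR-3196 exceeded miR-4508 in 2 libraries and lay below it in 3, and miR-4508 exceeded miR-4516 in 1 of 6. miR-4488 exceeded miR-3960 in 3 of 6. A read counts 1 short fragment whatever the entry, so no correction for length was made.

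Between the groups, 0 of the 6 entries passed limma's test at an adjusted p of 0.05, with 0 of all 80 tested entries passing (0%). Without adjustment 6 of the 80 (7.5%) had a p under 0.05, and 0 of the 6 described here. The fitted fold change lay above 0 for 5 of the 6, with a median of 2.28. It did so for 51 of the 80 tested entries (63.8%), with a median of 1.72. That background depends on the filter: without it, 50.9% of 686 entries lay above 0, with a median of 0.173. limma-voom on recovered reads called 1 of the 80 (13 without adjustment) and 0 of the 6. There miR-4516 had a log2 fold change of 4.38 with SE 1.66 (unadjusted p = 0.0295, adjusted p = 0.236).

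The result depended on which siCTL libraries were used. Without siCTL 3 miR-3196 (log2 fold change 9.91, limma adjusted p = 0.00721, range over its alternatives 0.00721 to 0.821) and miR-4516 (5.07, adjusted p = 0.0362, range 0.0362 to 0.915) passed, 2 of the 6. In that setting 19 of the 80 tested entries passed with siPRDX3 above (23.8%), a share that 2 of 6 is close to. miR-3196 then has siCTL libraries at 0 alone, and its fold change depends on the added 1. Without siCTL 1 and siCTL 2 the fold changes were −3.83 for miR-3196, −5.71 for miR-4508, −3.995 for miR-6087, −1.88 for miR-3960, 0.26 for miR-4516 and 0.69 for miR-4488. There 2 of the 6 lay above 0, as did 17 of the 80 tested entries (21.2%), and 0 passed (3 of 80 at an unadjusted p under 0.05). That comparison has 1 siCTL library, which is assumed to vary as the siPRDX3 libraries do.

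**Figure D3:**
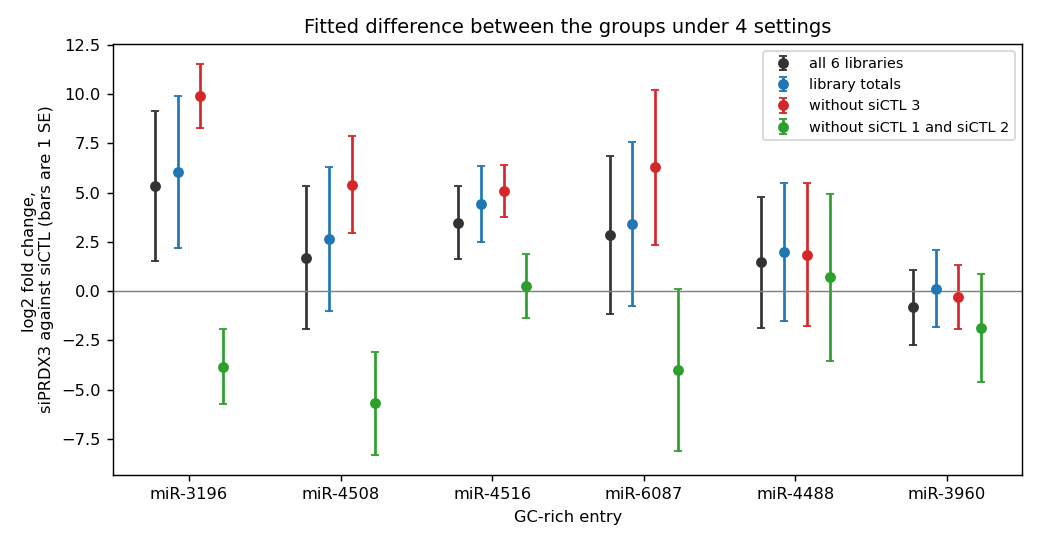
Log2 fold change of each GC-rich entry, siPRDX3 against siCTL, fitted with limma on all 6 libraries with the authors' scaling, on all 6 with scaling to library totals, without siCTL 3, and without siCTL 1 and siCTL 2. Bars are 1 SE. For miR-3196 the value runs from −3.83 without siCTL 1 and siCTL 2 to 9.91 without siCTL 3.

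Absence from the low siCTL libraries was common in the tables. Of the 6 entries 4 (miR-3196, miR-4508, miR-6087 and miR-4488) had no read in at least 1 of siCTL 1 and siCTL 2, as had 36 of the 80 tested entries (45%). In siCTL 1 and in siCTL 2 alike 3 of the 6 were at 0, where 37.5% and 28.7% of the tested entries were. All were detected in siCTL 3, siPRDX3 1 and siPRDX3 3. In siPRDX3 2 miR-6087 and miR-4488 were at 0, and 10% of tested entries were.

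Because siCTL 1 and siCTL 2 lie so far from the other 4 libraries, no correlation between 2 of the 6 entries over all libraries is given, and 4 libraries are too few to test one. Of the 15 pairs, 0 passed an exact permutation test of Pearson's r or Spearman's rho on log2 shares (smallest adjusted p = 0.375 and 0.361 over the 15 pairs). Pearson's r lay above 0 for 14 pairs over all 6 libraries. With the 2 libraries farthest from the median of the pair's first entry left out, it lay above 0 for 8 of 15 and ranged from −0.93 to 0.91. The libraries left out were not the same for every first entry, and 4 remained per pair. No common direction was therefore read from these signs.

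Among the 74 other tested entries, those whose deposited log2 values followed an entry most closely over the 6 libraries were different for each. Pearson's r is given as a description of likeness only: each value is among the highest of 74, and all rest on the same 6 libraries, whose split between siCTL 1 and 2 and the others is described above. miR-4516 was followed by miR-7-5p (r = 0.99), with 1, 1 and 205 reads among siCTL libraries and 726, 691 and 129 among siPRDX3 libraries, and by miR-25-3p (0.99). miR-3196 was followed by let-7e-5p (0.98) and miR-3529-3p (0.97). For miR-6087 the nearest were miR-193b-5p (0.99), which had 0, 0, 54, 346, 0 and 107 reads in the same order of libraries, and miR-375 (0.98). miR-4508 was nearest to miR-99b-5p and miR-589-5p (0.86 each). miR-4488 was nearest to let-7g-5p (0.77) and let-7d-5p (0.72), and miR-3960 to miR-378a-3p (0.83) and miR-378c (0.79).

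GC content was also read across the 2281 entries with a mature sequence. The 307 entries without one, among them miR-4508, miR-6087 and miR-3960, are left out of the sums below. They made up 11.2%, 5.05% and 10.9% of the siCTL libraries and 8.78%, 6.82% and 5.42% of the siPRDX3 libraries. The 69 entries whose mature sequence has at least 80% G and C, among them miR-3196 and miR-4488, made up 0.102%, 0.584% and 10.1% of the siCTL libraries and 3.47%, 3.13% and 5.61% of the siPRDX3 libraries. In every library but siCTL 1, where it had no read, most of this was miR-7704, a GC-rich entry from the HOXD1 locus whose mature sequence also occurs in the HOXD1 transcript. Its siCTL libraries held 0, 442 and 10613 reads and its siPRDX3 libraries 6972, 2909 and 3402, and limma put the log2 fold change at 4.56 (SE 3.86, adjusted p = 0.590). Printed with the seed in capitals for comparison with the sequences above, it and the next tested entry of this kind, miR-4497, read as follows.
miR-7704: cGGGGUCGgcggcgacgug
miR-4497: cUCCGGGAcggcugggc
Without miR-7704 and without miR-3196 and miR-4488, the other 66 entries made up 0.0897%, 0.0383% and 0.242% of the siCTL libraries and 0.120%, 0.0890% and 0.260% of the siPRDX3 libraries. For miR-4497 the reads were 8, 6 and 37 against 29, 33 and 22, and its fitted log2 fold change was −0.41 (SE 1.57, limma's adjusted p = 0.865). miR-1199-5p had all of its 205 reads in siPRDX3 1.

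A list of 36 other entries that overlap or resemble structural RNAs, or are GC-rich in the same way, was set beside the 6. Reads were found for 23 of them and 5 could be tested, of which 0 passed limma's test over all entries. The fold change lay above 0 for 2 and below 0 for 3, with a median of −0.15 against 1.72 over all tested entries. For miR-1246, whose sequence matched U2 RNA above, the siCTL libraries held 45, 514 and 838 reads and the siPRDX3 libraries 3495, 253 and 452. For miR-1290 they held 2185, 826 and 1470 against 3547, 1406 and 504. Neither was missing from siCTL 1 or siCTL 2. By contrast the tRNA-like miR-1260b had 0, 0 and 5 reads among siCTL libraries and 777, 330 and 204 among siPRDX3 libraries. For miR-1260a the reads were 0, 0 and 4 against 121, 341 and 217, and both had a limma adjusted p of 0.184. They were low in siCTL 3 too, where miR-3196 and miR-4508 were highest. miR-1275 had 152 reads in siCTL 3, 84 in siPRDX3 3 and 3 in siPRDX3 1. Of the entries from the transcribed spacer of the ribosomal RNA genes, miR-3648 had 0 reads and miR-3687 had 2, both in siCTL 3, in 644091 reads over all libraries.

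**Figure D4:**
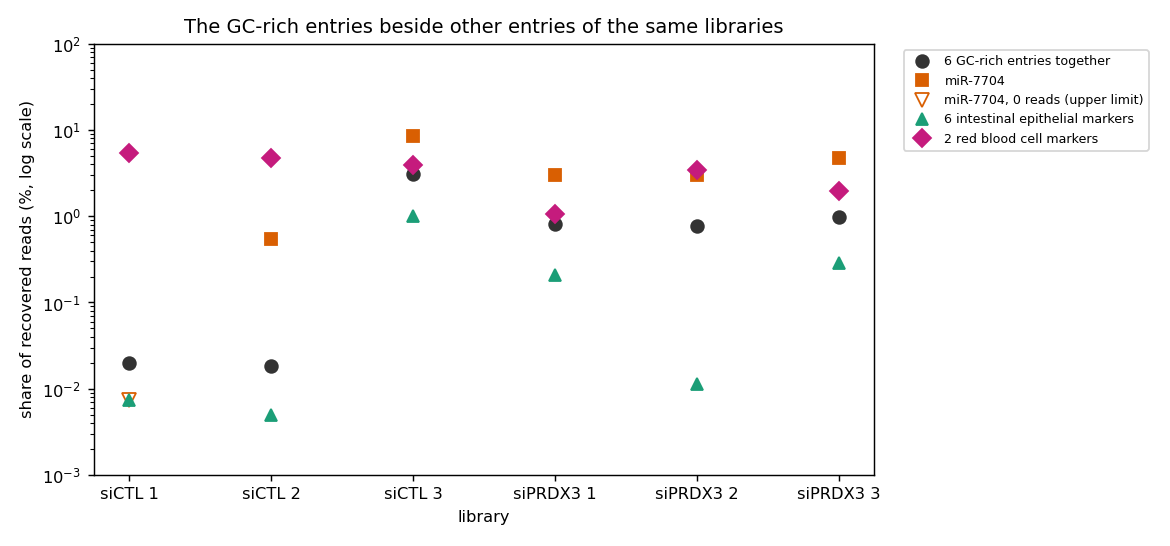
Share of recovered reads (percent, log axis) in each library of the 6 GC-rich entries together (circles), miR-7704 (squares), 6 miRNAs of intestinal epithelium (triangles) and 2 of red blood cells (diamonds). The open triangle marks 0 reads of miR-7704 in siCTL 1, at the share that 3 reads would make. The GC-rich entries run from 0.0185% in siCTL 2 to 3.09% in siCTL 3, while the red blood cell miRNAs stay between 1.05% and 5.43%.

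Markers of the labelled cell type were low in the same siCTL libraries as the GC-rich entries. The 6 miRNAs of intestinal epithelium (miR-192-5p, miR-194-5p, miR-215-5p, miR-200c-3p, miR-200b-3p and miR-141-3p) all had reads, and together they made up 0.00747%, 0.00494% and 1.01% of the siCTL libraries and 0.208%, 0.0114% and 0.286% of the siPRDX3 libraries. They were lowest in siCTL 1 and siCTL 2 and highest in siCTL 3, as the 6 GC-rich entries together were. In siPRDX3 2 the 2 sets parted: the markers were near their level in siCTL 1, while the GC-rich entries together stood at 0.776%. There miR-4516 had its highest share of all libraries and miR-4508 the highest of its group, while miR-3196 was lowest of its group and miR-6087 and miR-4488 had no read. In contrast miR-486-5p and miR-451a, abundant in red blood cells and serum, made up 5.43%, 4.73% and 3.96% of the siCTL libraries and 1.05%, 3.46% and 1.99% of the siPRDX3 libraries. The liver miRNA miR-122-5p ranged from 0.0593% to 5.35% in siCTL and from 2.44% to 9.64% in siPRDX3. Of 4 leukocyte and platelet markers, miR-142-3p, miR-223-3p and miR-150-5p were at 0, and the summed share was 0% in all libraries but siPRDX3 1 (0.00476%). The part of these differences in the values of the GC-rich entries was not tested. In exosome preparations a smaller number of vesicles and less of an RNA per vesicle cannot be told apart.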

How the data were processed

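Small-RNA libraries of exosomal RNA were analysed, 3 per group, grouped by their titles, although the last sentence of the series' design text names another siRNA and cell type. The authors deposited 1 table per library with a log2 value for each of 2588 mature miRNA entries. Bowtie2 and bedtools 2.25.0 were used, per the submitters' processing notes, which give no roles. What the sources used here do not give is the genome build, miRNA annotation, filters, scaling and handling of multiply mapped reads, so entries that share reads with near-identical sequences are uncertain. The deposited log2 values were read as log2(x + 1), where x is a scaled CPM that lies on whole multiples of 1 step per library, the worth of a read. Of values up to 100 reads, 100% were whole within 0.1 read in each library. Steps fitted over values of up to 500 reads gave the recovered reads, which are approximate for abundant entries. Shares are percent of recovered reads.

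Deposited log2 values of the 6 libraries were fitted with limma 3.58.1 (R 4.3.3, trended variance prior, no covariates, two-sided tests), with Benjamini-Hochberg adjustment over all tested entries and a threshold of 0.05. Fold changes are siPRDX3 minus siCTL on the log2(value + 1) scale. A single read was worth from 2.97 scaled CPM in siPRDX3 1 to 25.04 in siCTL 1. Fold changes of entries with 0 reads in some libraries therefore depend on the added 1 and can be large. Tested entries had at least 15 reads in all and, in 3 or more libraries, at least 112.6 CPM of recovered reads, without the scaling above, the worth of 10 reads at the median library size. Group labels of the 6 libraries were permuted exactly to compare shares (scipy 1.17.1, two-sided, smallest p = 0.1), adjusted over the 80 tested entries, and correlations by exact permutation of pairings. The limma script was tested on simulated data. The entries and lists were chosen with earlier results of these data known. The entries named are the 6, the 2 tested entries most alike to each by Pearson's r, up to 5 most read entries of at least 80% GC and of the related list, the most abundant entry and the cell type markers, and others were chosen after their values were seen. Alternatives covered scaling, pseudocount, filter, limma-voom, the replicate block, thinning to 40136 reads and leaving out libraries. TMM factors were computed directly from their definition.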

Additional observations from a re-analysis of the deposited data

How the results depend on the processing

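Over all entries the number passing was 0 in all settings except limma-voom (1), and leaving out each library gave 0 to 20, the 20 without siCTL 3. The ranges of the log2 fold change when each library was left out were 3.04 to 9.91 for miR-3196, −1.49 to 5.40 for miR-4508, 2.60 to 5.07 for miR-4516, 1.14 to 6.28 for miR-6087, −0.60 to 4.12 for miR-4488 and −1.82 to −0.30 for miR-3960. The highest values of miR-3196 and miR-4516 passed the threshold, and both came without siCTL 3. miR-4508 turned negative without siCTL 1 (−1.49), miR-4488 without siCTL 2 (−0.48) and without siPRDX3 3 (−0.60). Without siCTL 1 and siCTL 2 together miR-3196 (−3.83), miR-4508 (−5.71) and miR-6087 (−3.995) reversed. With pseudocounts of 10 and 100, miR-3196 was 3.14 and 1.12, miR-4508 0.63 and −0.27, miR-6087 1.76 and 0.73, and miR-4488 1.33 and 0.82. miR-3960 was 0.12 under library totals, 0.19 with TMM factors and 0.46 after thinning. The causes were not tested. miR-4516 kept its direction in every setting run. As differences in share of reads (percentage points, siPRDX3 minus siCTL), leaving out each library gave −0.440 to 0.246 for miR-3196, −0.577 to 0.132 for miR-4508, −0.00641 to 0.00584 for miR-3960 and −0.707 to 0.831 for the 6 together. Without siCTL 1 and siCTL 2 the values were −0.0423 for miR-6087, −0.00838 for miR-3960 and −2.24 for the 6 together, and miR-3960 had −0.00695 when miR-4451 left the denominator. With the replicate number as a block 0 entries passed (smallest adjusted p = 0.427 by limma), 7 had an unadjusted p under 0.05 against 6 without it, and miR-4516 had an adjusted p of 0.600. Libraries of the same number deviated from their group means with correlations of −0.24, 0.18 and 0.14, so the numbers were not taken to pair libraries. miR-4488 and miR-3960 did not enter under the stricter filter. At 40136 to 230916 reads, entries below about 0.01% of reads rest on a few reads.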
